A study of Homo sapiens with 4 samples.

Results

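Alternative exons of the MAP kinase cascade were examined in HEK293T cells, a human embryonic kidney line, with and without an antisense oligonucleotide (ASO) against SNORD89. The genes were all those in the deposited table of skipped exons whose symbol begins with MAPK, MAP2K, MAP3K or MAP4K. The table held 275 skipped exon events of 46 such genes, and the 245 events with a mean of at least 20 junction reads over the 4 libraries were kept. They cover 201 distinct exons in 44 genes, out of 54503 events at this depth in the whole table. The events just inside the read minimum were in MAPKBP1 (20.75 reads) and MAP4K1 (23.0 reads), and those just outside it in MAP3K8 (18.75 reads) and MAP3K14 (18.25 reads). The prefix also takes in genes that are not kinases of the cascade: JNK scaffolds, the mTORC2 subunit MAPKAP1 and the RNA gene MAPKAPK5-AS1. MAPK4 and MAP3K14-AS1 had events under the read minimum only.

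Per the labels, 2 libraries came from 293T cells given a MOE gapmer ASO against SNORD89, a box C/D small nucleolar RNA, at 70 nM, and 2 from 293T cells with treatment given as none. A gapmer is an ASO whose DNA core, once paired to an RNA, lets RNase H cut that RNA. The labels attach the same lipid transfection protocol to both groups and name no control ASO, and RNA was taken at 48 hours. Replicates are labelled as biological, without saying whether they were separate cultures. The table places the libraries in a first and a second set, and neither its header nor the labels say which set received the ASO. The name of the deposited table puts SNORD89 before the untreated group, but a name was not taken as an assignment of the sets. All directions below are therefore first set against second set.

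A MAP kinase cascade is a relay in which an upstream MAP4K or a small GTPase activates a MAP3K, which phosphorylates a MAP2K, which phosphorylates a MAPK on its activation loop. The ERK branch answers mainly to growth factors, and the JNK and p38 branches mainly to stress and cytokines. Scaffold proteins hold kinases of a branch together. Many of these genes carry cassette exons outside the catalytic core, where docking and regulatory segments lie. An exon that is skipped has an inclusion level below 1, the level being the share of transcripts, estimated from reads across splice junctions, that contain the exon. A level measured on bulk RNA cannot tell a small shift in every cell from a large shift in a few.

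The exons shown here are those printed because the comparison between sets turned on them, or because they were deep, fully coding, alternative and a whole number of codons long. They were picked after their values were seen. Each sequence comes from a GENCODE release 29 transcript (GRCh38) matched by exon and intron lengths, and is printed 5′ to 3′. Capitals mark the exon, and the 15 lower-case bases on either side belong to the neighbouring exons, so that the skipped form joins the lower-case ends. Coordinates are hg19, as in the deposited table.
MAP3K7, chr6:91254271-91254351, minus strand, 81 nt: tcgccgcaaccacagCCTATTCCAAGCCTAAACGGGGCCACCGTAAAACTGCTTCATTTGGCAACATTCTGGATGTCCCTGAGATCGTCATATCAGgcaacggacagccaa
MAP2K7, chr19:7970693-7970740, plus strand, 48 nt: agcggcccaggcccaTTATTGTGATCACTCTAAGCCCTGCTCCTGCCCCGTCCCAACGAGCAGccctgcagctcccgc
MAP3K4, chr6:161519310-161519459, plus strand, 150 nt: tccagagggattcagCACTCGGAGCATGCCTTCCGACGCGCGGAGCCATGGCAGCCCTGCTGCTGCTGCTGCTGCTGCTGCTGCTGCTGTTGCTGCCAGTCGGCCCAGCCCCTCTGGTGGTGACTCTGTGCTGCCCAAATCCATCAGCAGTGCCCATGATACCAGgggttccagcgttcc
MAP4K4, chr2:102487956-102488147, plus strand, 192 nt: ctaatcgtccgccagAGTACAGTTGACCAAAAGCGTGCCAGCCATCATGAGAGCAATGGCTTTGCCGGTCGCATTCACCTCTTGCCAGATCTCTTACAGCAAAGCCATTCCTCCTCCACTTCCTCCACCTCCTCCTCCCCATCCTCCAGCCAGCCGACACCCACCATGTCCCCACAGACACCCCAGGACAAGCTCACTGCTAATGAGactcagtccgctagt
MAPK12, chr22:50694239-50694310, minus strand, 72 nt: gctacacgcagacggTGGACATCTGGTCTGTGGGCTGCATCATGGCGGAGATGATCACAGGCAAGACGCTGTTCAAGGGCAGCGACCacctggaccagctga
MAPKAP1, chr9:128268589-128268696, minus strand, 108 nt: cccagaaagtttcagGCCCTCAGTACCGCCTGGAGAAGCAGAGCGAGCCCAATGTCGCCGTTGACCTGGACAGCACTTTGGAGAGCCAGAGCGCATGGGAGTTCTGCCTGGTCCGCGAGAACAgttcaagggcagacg
MAP4K2, chr11:64559644-64559747, minus strand, 104 nt: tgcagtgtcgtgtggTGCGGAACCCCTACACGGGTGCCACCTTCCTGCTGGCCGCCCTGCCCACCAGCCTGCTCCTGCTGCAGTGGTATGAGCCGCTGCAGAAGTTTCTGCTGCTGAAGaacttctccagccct
MAP4K2, chr11:64569051-64569093, minus strand, 43 nt: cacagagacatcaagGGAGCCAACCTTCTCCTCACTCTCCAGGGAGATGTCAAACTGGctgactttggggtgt
The exons of MAP3K7, MAP2K7, MAP3K4, MAP4K4, MAPK12 and MAPKAP1 hold 27, 16, 50, 64, 24 and 36 codons, and skipping any of them keeps the reading frame. Neither MAP4K2 exon has a length divisible by 3. The MAP3K4 exon contains a run of CTG repeats and has the highest GC content of the 8, at 64.7%.

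Summed over all events of the table, junction reads came to 38613055 and 39012939 for the first set's libraries and to 42868431 and 43929373 for the second set's. The tested MAP kinase cascade events took between 73093 and 83699 of these per library. Depth per event went the other way: the median event of these genes had 227 and 212 reads in the first set's libraries. In the second set's it had 155 and 158. Over all tested events the medians were 222 and 199 against 157 and 171. Library 2 of the second set stood apart: 3280 events of the table had no reads in it, against 513 to 624 in the others, although each tested event of these genes had reads in every library. Over the 61 events of these genes with a mean inclusion level between 0.05 and 0.95, the 2 libraries of the second set differed by more than 0.2 in 15 events (24.6%), and those of the first set in 7 (11.5%). Over all tested events of intermediate inclusion these shares were 22.3% and 7.85%. Library 2 of the second set had the lowest level of the 4 in 24 of the 61 events (39.3%, against 33.7% of all such tested events). It had the highest in 18 (29.5%, against 32.1%). Library 1 of the same set also had the highest in 18 (29.5%), against 18.9% of all such tested events. Of the kidney line's markers, VIM had 3859 to 5561 junction reads per library, CDH2 330 to 1160, PAX2 52 to 89 and KRT8 23 to 50. KRT18, NEFM and NEFL and the 9 markers of blood, liver, endothelium and muscle had no event listed, which in a table of skipped exons says nothing on their expression.

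Most exons of the cascade were nearly always included. Of the 245 events, 169 (69.0%) had a mean level of at least 0.95, 61 (24.9%) lay between 0.05 and 0.95, and 15 were at or under 0.05. Over all tested events of the table the first 2 shares were 66.1% and 24.4%. The alternative events fell in 27 of the 44 genes. Events of intermediate inclusion made up 14 of 39 in the MAP4K genes, 11 of 43 in the MAP3K genes, 6 of 50 in the MAP2K genes and 18 of 50 in the MAPK genes. None of the 22 events of the downstream kinases MAPKAPK2, MAPKAPK3 and MAPKAPK5 was intermediate, while 10 of 37 in scaffolds and binding partners were. Taking the most read event of each exon, 24 of 49 intermediate exons (49.0%) and 48 of 137 nearly constant ones (35.0%) had a length divisible by 3. The same shares over all tested exons were 44.8% and 39.2%. Of the 245 events, 154 were matched to a fully coding exon and 47 to no release 29 transcript.

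**Figure D1:**
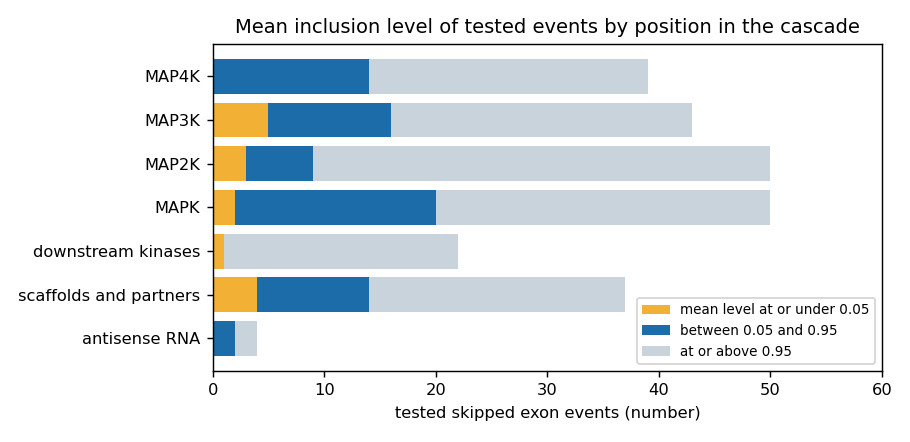
Horizontal bars give the number of tested skipped exon events in each class of the cascade, divided by mean inclusion level over the 4 libraries. The MAP4K bar holds 14 intermediate events of 39, the MAP2K bar 6 of 50 and the bar of the downstream kinases none of 22.

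To ask which of these exons differed between the sets, events were called from the authors' rMATS test at a false discovery rate (FDR) under 0.05 over the whole table and a difference in inclusion level of at least 0.1. Of the 245 events, 3 were called (1.22%), where 2.71% of all tested events were. All 3 were lower in the first set, a direction called for 1.37% of all tested events, and none was higher, against 1.34%. They were 2 exons of MAP4K2 and 1 of MAPKBP1, and in each of them library 2 of the first set was the low library. An FDR under 0.05 alone was given to 7 events (2.86%), against 5.72% of all tested events, and an authors' p-value under 0.05 to 33 (13.5%), against 14.3%. The median absolute difference was 0.0124 for these genes and 0.0114 for all tested events.

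With the spread between libraries as the error, no event of these genes passed. In the quasi-binomial model this spread was pooled in full over events of similar depth. An event's own spread between libraries therefore did not enter its p. By the quasi-binomial model, 0 of 245 had an adjusted p under 0.05 (background 0.00183%, 1 event of the table), 4 had an unadjusted p under 0.05 (1.63%, against 2.82%), and the smallest adjusted p was 0.877. When log2 ratios of inclusion to skipping reads were fitted with limma, 0 of 245 passed (background 0%), 7 had an unadjusted p under 0.05 (2.86%, against 4.87%), and the smallest adjusted p was 0.955. The limma fit recovered no change on simulated data either, so its count of 0 cannot tell whether any exon differed. The quasi-binomial count of 0 does not show that the exons were alike between the sets. Even the 226-nt exon of MKNK2, a target gene given below, did not pass that model. It differed by 0.199 at a mean of 443.5 reads, with a quasi-binomial adjusted p of 0.167. An exact permutation test of 2 libraries against 2 cannot give a two-sided p under 0.333 and was not used.

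Differences of at least 0.1 in these genes were all in events with few reads. There were 14 such events (5.71%, against 7.19% of all tested events); the first set was the higher in 4 and the lower in 10, and all 14 had a mean under 100 reads, the deepest having 86.0. Of the 169 events with at least 100 reads none differed by 0.1. Large differences lay mostly at low depth in the whole table too, where 3406 of 3917 had under 100 reads and 511 of 37051 events with at least 100 reads differed by 0.1. The largest differences at that depth were 0.084 for the 68-nt exon of MAPK8IP3 and -0.080 for the 192-nt exon of MAP4K4.

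**Figure D2:**
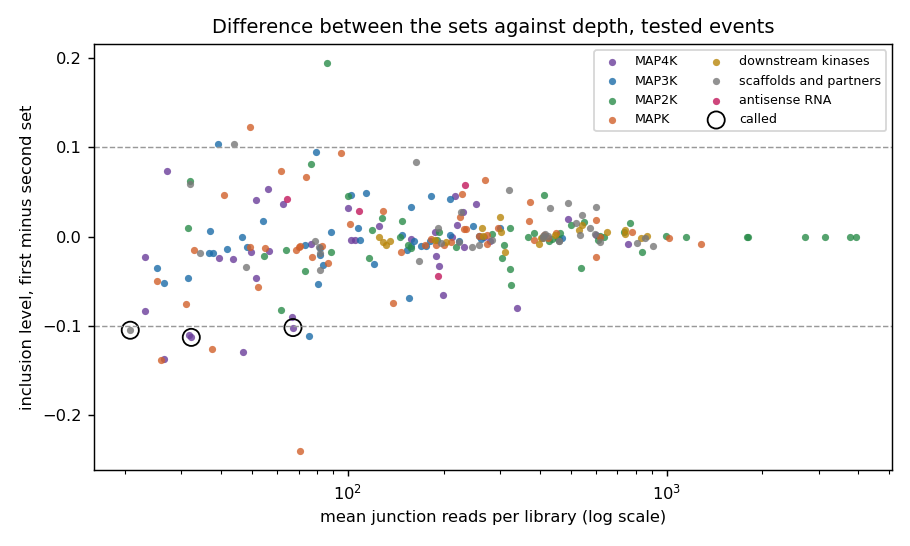
Each point is 1 of the 245 tested events, with the mean junction reads per library on a log axis and the inclusion level of the first set minus that of the second on the vertical axis. Colours give the class of gene, rings the 3 called events, and dashed lines a difference of 0.1 in either direction. All 14 points on or beyond the lines lie under 100 reads.

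MAP4K2, a Ste20-type kinase that feeds the JNK branch, held both called exons of the kinases proper. For the 104-nt coding exon, numbered 26 of 32 in the matched transcript, the first set had levels of 1.00 (95% Wilson interval 0.868 to 1.00) and 0.750 (0.619 to 0.846). The second set had 0.954 (0.849 to 0.987) and 1.00 (0.925 to 1.00), from 43 to 80 reads per library. The groups overlapped, since the first library of the first set was at the top of the range. The authors' deposited table lists -0.102 for the difference, with FDR 0.0205. The quasi-binomial unadjusted p was 0.0872 and the adjusted p was 0.877. Without library 2 of the first set the difference turned to 0.023, and without library 2 of the second set it was -0.080.

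For the 43-nt coding exon of MAP4K2, exon 7 of the same transcript, the first set had levels of 0.970 (0.850 to 0.995) and 0.804 (0.651 to 0.90). The second set had 1.00 (0.850 to 1.00) and 1.00 (0.739 to 1.00), from 28 and 14 reads. Both first set libraries lay below both second set libraries, but 0 skipping reads of 14 allow a skipping share of the reads of up to 21.4%. The authors' deposited table lists -0.113 with FDR 0.0210, and the quasi-binomial adjusted p was 0.877. Without library 2 of the first set the difference was -0.030. Intervals and limits of this kind cover counting error only, as reads without molecular identifiers are not independent molecules.

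MAPKBP1, a JNK-binding scaffold protein, had the third called event, a 161-nt exon at chr15:42105819-42105979 on the plus strand. Levels in the first set were 1.00 (0.676 to 1.00) and 0.789 (0.621 to 0.896), and both second set libraries were at 1.00 (0.610 to 1.00 and 0.342 to 1.00). The second set held only 12 and 4 reads, the first 16 and 51. All skipping reads, 6 in number, came from library 2 of the first set, and without that library the difference of -0.105 became 0.000. The FDR in the authors' deposited table is 0.0207, and the quasi-binomial adjusted p was 0.877.

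MAP3K7 (TAK1), the kinase that relays interleukin and TGF-beta receptor signals to JNK, p38 and NF-kappaB, showed the only difference among events with an FDR under 0.05 in which both libraries of each set stood together at more than 100 reads. Its 81-nt exon, numbered 12 of 17 in the matched transcript, is the cassette exon that separates the known long and short TAK1 variants. Inclusion was rare in all libraries: the first set had 0.0598 (0.0392 to 0.0902) and 0.0602 (0.0381 to 0.0938), the second 0.0215 (0.00834 to 0.0542) and 0.00756 (0.00207 to 0.0272). These levels came from 21 inclusion reads of 235 and 18 of 200, against 4 of 122 and 2 of 172. Both first set libraries lay above both second set libraries. The difference was 0.045, under the size needed for a call, and the authors' deposited table lists FDR 0.00160 for it. The quasi-binomial unadjusted p was 0.0399 and the adjusted p was 0.877. It stayed between 0.039 and 0.052 with each library left out in turn.

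The other 3 events with an FDR under 0.05 were at 1.00 in 3 libraries and lower in library 2 of the second set alone. They were the 68-nt and 114-nt coding exons of MAPK8IP3 (JIP3), a JNK scaffold that also links cargo to kinesin, and a 173-nt exon of MAPKAP1. In that library the levels were 0.831 (0.751 to 0.889) for the 68-nt exon, 0.895 (0.845 to 0.931) for the 114-nt exon and 0.935 (0.901 to 0.958) for MAPKAP1. The differences in the authors' deposited table are 0.085, 0.052 and 0.032, with FDR values of 0.000435, 0.000926 and 0.00627. Without library 2 of the second set each of the 3 differences was 0.000. Counted with its more distant downstream neighbour, the same MAPKAP1 exon was at 0.985 in library 1 of the first set and at 1.00 in the other 3. The MAPK8IP3 exons are exons 25 and 28 of 32 in the matched transcript, at chr16:1816905-1816972 and chr16:1817806-1817919, and no release 29 transcript skips either between these neighbours.

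**Figure D3:**
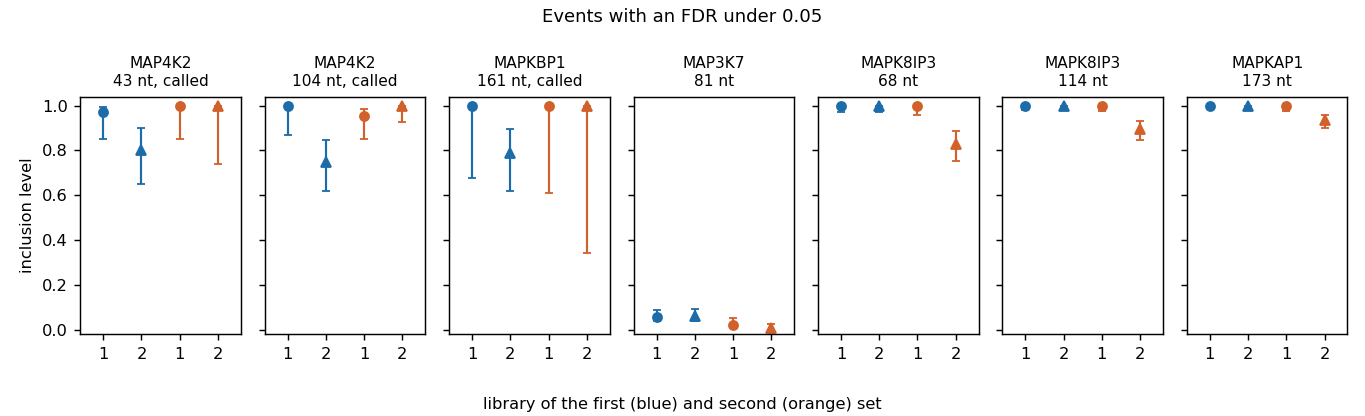
Each panel is 1 of the 7 events with an FDR under 0.05, with the inclusion level of every library on the vertical axis and 95% Wilson intervals as bars; blue is the first set and orange the second. Library 2 of the first set is the low one in the 3 called events and library 2 of the second set in the MAPK8IP3 and MAPKAP1 events, while in MAP3K7 both blue points lie above both orange ones.

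In the MAP4K class the alternative exons were those of MAP4K2, MAP4K3 and MAP4K4, with a weakly read exon in MAP4K1. MAP4K4 (HGK), a kinase that acts on JNK and on cell adhesion, had the most events of any gene, 19, and its cassette exons lie in the stretch between the kinase domain and the carboxy-terminal citron homology domain. The deepest was the 192-nt exon printed above, at 0.402 and 0.425 in the first set against 0.493 and 0.494 in the second, from 259 to 453 reads. The sets did not overlap, with both first set libraries lower, and the difference was -0.080. It did not pass, with FDR 0.255 in the authors' deposited table and a quasi-binomial adjusted p of 0.877. A 222-nt exon of MAP4K4 at chr2:102476105-102476326 was also lower in both libraries of the first set, at 0.837 and 0.905 against 0.917 and 0.955, with FDR 0.155 in the authors' deposited table. Counted between other neighbour exons, the same exon had differences of -0.137 (FDR 0.0512) and -0.022 (FDR 0.945) there. MAP4K3 (GLK), a kinase linked to amino acid sensing, had a 63-nt exon at 0.380 and 0.584 in the first set against 0.601 and 0.282 in the second. These came from 22 to 103 reads, and the range of the first set lay within the wider range of the second.

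Among the MAP3K genes, 5 genes had a deep alternative exon besides the rare MAP3K7 one, and none of these differed between the sets beyond the spread of libraries. The 150-nt exon of MAP3K4 (MEKK4), an activator of p38 and JNK, was at 0.166 and 0.0979 in the first set against 0.133 and 0.127 in the second, a difference of 0.002. The second alternative exon of MAP3K7, 116 nt long and numbered 16 of 17, was at 0.877 and 0.866 against 0.953 and 0.788, a difference of 0.001. Without library 2 of the second set this difference was -0.081. A 178-nt exon of MAP3K3 (MEKK3), which acts upstream of MAP2K5, was at 0.862 and 0.798 against 0.809 and 0.769. The 149-nt exon of MAP3K10 (MLK2), a mixed-lineage kinase of the JNK branch, was at 0.821 and 0.95 against 0.925 and 0.983. In MAP3K6 (ASK2), a partner of the stress kinase ASK1, a 77-nt exon was at 0.912 and 0.951 against 0.806 and 0.965. In each of these 5 exons the sets overlapped, and the FDR in the authors' deposited table ranged from 0.146 for MAP3K10 to 1.

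Exons of the MAP2K class were mostly constant, at or above a mean level of 0.95 in 41 of 50 events. MAP2K2 (MEK2), the direct activator of ERK, had the deepest events of all these genes, up to 3936.5 reads, and its 214-nt exon was at 0.989 and 0.992 in the first set against 0.993 and 0.99 in the second. A 73-nt exon in MAP2K2 was almost never used: 0.000453, 0, 0.00137 and 0 in the 4 libraries, from 1482 to 2028 reads, where the zeros allow a share of inclusion reads of up to 0.178% and 0.148%. MAP2K7 (MKK7), the kinase devoted to JNK, had the 48-nt exon printed above in its amino-terminal region, where JNK docks. It was included at 0.158 and 0.145 in the first set against 0.0968 and 0.114 in the second, from 290 to 509 reads. Both first set libraries were higher, by 0.046 on average. This did not pass either, with FDR 0.15 in the authors' deposited table and a quasi-binomial adjusted p of 0.877.

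MAP2K4 (MKK4), which acts on JNK and p38, had a 103-nt coding exon at 1.00 and 0.891 in the first set against 0.945 and 0.904 in the second, with overlapping sets. MAP2K5 (MEK5), the activator of ERK5, had a 30-nt exon at 0.813 and 0.918 in the first set against 0.881 and 0.462 in the second, from 61 to 109 reads. Its difference of 0.194 was the largest positive one among these genes and rested on library 2 of the second set, without which it was -0.016. Its FDR is 0.441 in the authors' deposited table.

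Among the MAPKs themselves, events under the symbols of the JNK and p38 genes made up 14 of the 18 intermediate events. MAPK3 (ERK1) had a 149-nt exon at 0.873 and 0.911 in the first set against 0.924 and 0.907 in the second, from 515 to 736 reads, and the sets overlapped. The 80-nt exon of MAPK6 (ERK3), an atypical MAPK, was at 0.0782 and 0.0615 against 0.111 and 0, the last from 27 reads, which allow a share of inclusion reads of up to 11.1%. MAPK14 (p38 alpha) had a single event, a 79-nt exon at 1.00 and 0.983 against 1.00 and 0.963.

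MAPK12 (p38 gamma), prominent in muscle, held 18 events under its gene symbol. Most events with this symbol are of exons that start between chr22:50684727 and chr22:50688064, away from its 72-nt exon at chr22:50694239. Whether those exons belong to p38 gamma transcripts was not tested. The symbol gave 7 of the intermediate events counted above for JNK and p38 genes, and how many of the 7 lie in this stretch is not given. The 72-nt coding exon of MAPK12 printed above was at 0.924 and 0.958 in the first set against 0.909 and 0.937 in the second, from 494 to 717 reads. The sets overlapped and their means differed by 0.018. MAPK9 (JNK2) had a 93-nt exon before the start codon at 0.249 and 0.245 in the first set against 0.261 and 0.108 in the second, from 152 to 366 reads. Library 2 of the second set alone was low. A 241-nt exon of MAPK9 at chr5:179706796-179707036 was at 0.143 and 0.119 against 0.0764 and 0.0903, higher in both first set libraries, at FDR 0.107 in the authors' deposited table. MAPK8 (JNK1) showed the largest negative difference of these genes, -0.240, for a 194-nt exon before the start codon. The first set stood at 0.699 and 0.621, from 130 and 107 reads. The second stood at 0.800 and 1.00, from only 36 and 9 reads, and the FDR is 0.191 in the authors' deposited table.

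**Figure D4:**
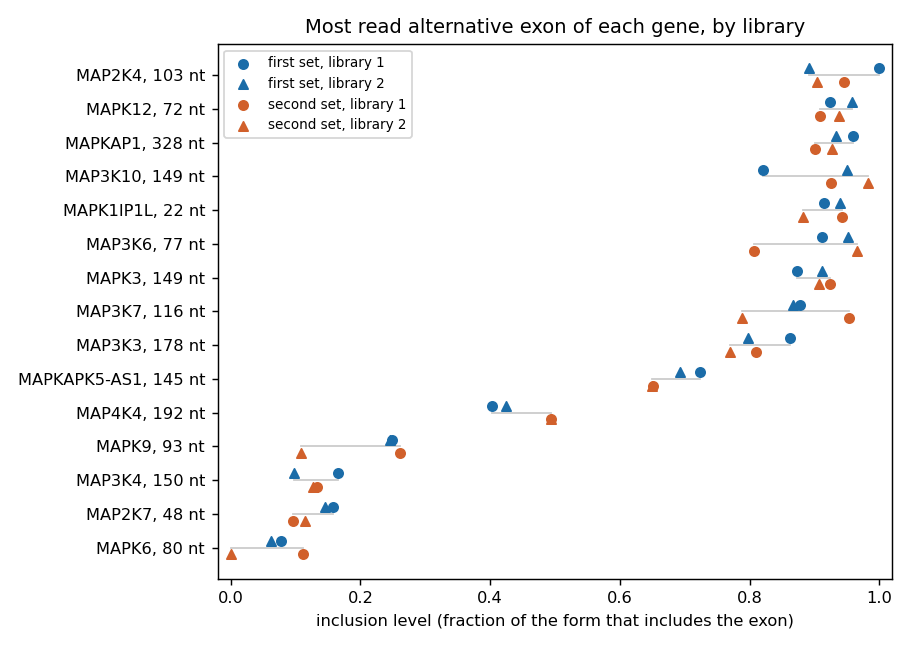
The inclusion level of each library is plotted for the most read event of intermediate inclusion in each gene with at least 100 reads; blue marks the first set, orange the second, circles library 1 and triangles library 2. The colours separate in MAP4K4 and MAP2K7, by 0.080 and 0.046 in mean level, and in MAPKAP1 and MAPKAPK5-AS1, by 0.033 and 0.058, while in MAPK9 and MAP3K7 library 2 of the second set is the low point.

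Among scaffolds and partners, 3 of the 4 tested events of MAPKBP1 were intermediate. MAPKAP1 (SIN1), the mTORC2 subunit that helps recruit AKT, had the most intermediate events, 5 of 17. Its 108-nt coding exon printed above was at 0.467 and 0.483 in the first set against 0.487 and 0.414 in the second, from 440 to 644 reads, and the means differed by 0.024. Between this pair of neighbour exons, forms with and without the exon were at similar abundance in all 4 libraries. With a neighbour further downstream the exon's level was higher, as given below. A 328-nt partly coding exon of MAPKAP1 was at 0.959 and 0.933 against 0.90 and 0.927, and an overlapping 244-nt version of it at 0.95 and 0.917 against 0.884 and 0.907; both were higher in the first set, and they share reads. The 22-nt exon of MAPK1IP1L was at 0.915 and 0.939 against 0.943 and 0.882. MAPKAPK5-AS1, an RNA gene on the strand opposite to MAPKAPK5, had a 145-nt exon at 0.723 and 0.692 against 0.651 and 0.649, a difference of 0.058. The authors' deposited table lists FDR 0.780 for it. The sources used here do not state whether counting used strand, so its values are uncertain.

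Several exons were counted between more than 1 pair of neighbours, and 37 exons had more than 1 tested event. In the exons given here, picked after their values were seen, the level depended on the pair. This does not hold for every such exon: the 147-nt exon of MAP2K1 had mean levels of 0.994 and 0.998 with different downstream neighbours. The 108-nt exon of MAPKAP1 was at 0.467, 0.483, 0.487 and 0.414 in its deeper event, and at 0.973, 0.790, 0.884 and 0.933 when counted with a neighbour further downstream. The 93-nt exon of MAPK9 was at 0.108 to 0.261 in its deepest event and at 0.511 to 0.876 with a downstream neighbour further away. The 162-nt exon of MAP4K4 at chr2:102477287-102477448 was at 0.222 to 0.544 when the exon counted after it was the 231-nt cassette exon, and at 0.120 to 0.176 when that exon was passed over. In these 3 exons the shallower event named was the higher in every library. MAPK12 showed the opposite order: its 30-nt exon was at 0.903 to 0.929 in the deeper event and at 0.305 to 0.788 in the shallower.

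**Figure D5:**
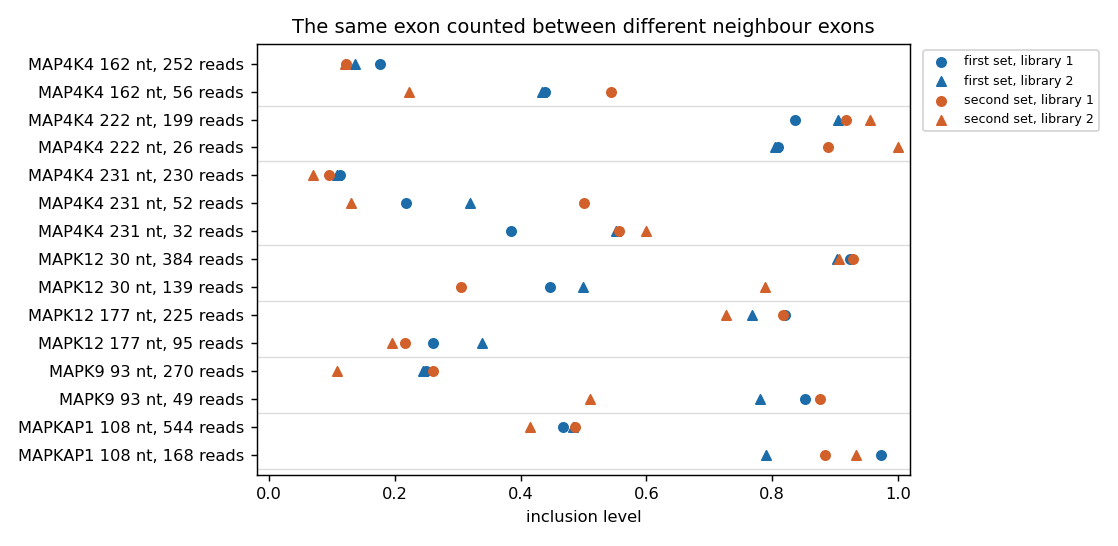
Inclusion levels by library are plotted for exons with more than 1 intermediate event and at least 100 reads in the deepest, with a row for each event and its mean reads per library; symbols are blue for the first set and orange for the second. Within each of the MAPKAP1, MAPK9 and MAP4K4 162-nt exons the rows do not overlap, and the 30-nt exon of MAPK12 ranges from 0.305 to 0.788 in its shallower row.

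Across the 61 events of intermediate inclusion, the sets did not overlap in 18 (29.5%), where 33.4% of all such tested events did not. Of these, 9 were higher and 9 lower in the first set. In the MAP4K genes 8 of 14 did not overlap, 2 higher and 6 lower, but 6 of the 8 are in MAP4K4, where events share exons and reads. In the MAP3K and MAP2K genes 1 each did not overlap, of 11 and 6, and in the MAPK genes 4 of 18.

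The genes around the cascade were read from a list of 88 upstream, opposing and target genes, of which 66 had tested events, 289 in number. Of these events 10 were called (3.46%, against 2.71% of all tested), with 7 differences above 0 and 3 below. The RAS and RAF group had 0 of 88 called by the authors' test, with 6 at an FDR under 0.05, and the quasi-binomial model called 0 of the 289. Among kinases and adaptors of stress inputs, the differences in the authors' deposited table were 0.142 for SPAG9, 0.127 for PAK1, -0.238 for TNIK and -0.128 for TRAF3. Among phosphatases, the same table gives 0.104 for PPM1D and -0.348 for the MAPK phosphatase DUSP10. Among targets, it gives 0.349, 0.199, 0.170 and 0.155 for MEF2A, MKNK2, RPS6KA2 and RPS6KA3. Of the 10, 6 kept a difference of at least 0.1 without library 2 of the second set, and SPAG9, PAK1, PPM1D and RPS6KA2 did not. MEF2A, with 29 reads in that library, fell to 0.133 without it. Mean reads per library were 22.75 for DUSP10, 31.25 for RPS6KA3, 47.5 for RPS6KA2, 63.75 for TRAF3 and 68.75 for SPAG9. They were 74.25 for TNIK, 107.25 for MEF2A, 124.0 for PAK1, 191.25 for PPM1D and 443.5 for MKNK2. In the second set DUSP10 had only 13 and 19 reads, and RPS6KA3 18 and 16.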

How the data were processed

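Reads were trimmed and aligned with cutadapt and STAR to hg19, per the submitters' processing notes; versions are not given in the sources used here. Per the file headers, the authors' table has the rMATS layout for skipped exons and gives junction read counts for inclusion and skipping, inclusion levels as fractions, their difference as a score from -1 to 1, a p-value and an FDR over all events. Each cell joins 2 libraries. The effective form lengths in nt are in the deposited table too. Levels recomputed from the reads matched the deposited ones within 0.0005.

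Computed here were 95% Wilson intervals, carried through the length correction, and a quasi-binomial model over all tested events, with its dispersion moderated by squeezeVar (limma 3.58.1, R 4.3.3). A trend on read depth was added to that step after a test on simulated data gave too many false calls without it. A limma fit to log2 ratios with a pseudocount of 0.5 was run beside it; on simulated data the limma fit recovered no change. P-values were Benjamini-Hochberg adjusted over the 54503 tested events.

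Events named were those called, those passing the quasi-binomial model, others with an FDR under 0.05, and in each gene the most read event of intermediate inclusion with at least 100 reads; further ones were named after their values were seen. Genes and lists were chosen with earlier results of these data known. All 46 gene identifiers were found in GENCODE release 29, and 80.8% of tested events were matched by exon and intron lengths. Alternatives covered read minimum, thresholds, tools and each library left out. The values of 1 gene are not reported here.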

Additional observations from a re-analysis of the deposited data

How the results depend on the processing

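Of the 3 called events, 1 was left when a mean of 50 reads was required, and 0 when the difference had to reach 0.2 or the FDR to lie under 0.01; with 0.05 as the smallest difference there were 5. The number was 3 at a minimum of 10 reads, 3 when p-values were adjusted over tested events alone, 3 with 1 event per exon, 4 with no read minimum, and 2 for the kinases proper. With a library left out, between 0 and 3 kept a difference of 0.1. Without library 2 of the first set it was 0, and the 104-nt MAP4K2 exon then reversed: its difference ran from -0.228 to 0.023 over the 4 libraries left out. The quasi-binomial count stayed 0 under each of its planned settings, among them the limma fit, which recovered no change on simulated data. Leaving out each library, chosen after seeing the data, gave 0 to 3; the 3 came without library 1 of the second set, when 246 events of the whole table passed. Non-overlapping intermediate events numbered 11, not 18, between levels of 0.1 and 0.9. In the surrounding genes 3 of 10 calls reached 0.2, and 6 to 10 kept 0.1 with a library left out, also chosen after seeing the data. Of the 22 named differences, 14 kept their sign without library 2 of the second set. No paired analysis was possible because the columns carry no replicate numbers, so the planned replicate block was not run. Read depth was low in the second set for the 43-nt MAP4K2 exon (28 and 14 reads), the MAPKBP1 exon (12 and 4) and the 194-nt MAPK8 exon (36 and 9).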
